A study of Mus musculus with 8 samples.

Results

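The gasdermin C genes and 4 other epithelial genes that respond, or are likely to respond, to type 2 cytokines were examined in RNAseq of mouse intestinal epithelial cells (IECs) with and without the RNA helicase DDX5. The 8 genes, Gsdmc, Gsdmc2, Gsdmc3, Gsdmc4, Pla2g4c, Retnlb, Mptx1 and Ang4, were chosen by name from the 40178 genes that the files list in either tissue, and all 8 were listed in both tissues. They were selected on earlier results of these data, in which the genotypes had been compared, so their differences between the genotypes, and the difference of these between the tissues, are given as a description with no test. Libraries were made from the colon and the ileum of 2 wild-type mice (WTIEC, Ddx5+/+ Villin1Cre+) and 2 knockout mice (DDX5ΔIEC, Ddx5 fl/fl Villin1Cre+), so all 4 mice carried the Cre driver, which is active across the intestinal epithelium. The labels give an age of 8 weeks and an untreated, healthy epithelium, and the cells were those released from the gut wall by EDTA. By the mouse numbers in the study's supplementary tables, each mouse gave 1 colon and 1 ileum library under the same replicate number, so each group holds 2 mice and the 8 libraries hold 4.

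Type 2 cytokines, chiefly IL-4 and IL-13, act on the epithelium through receptors that contain IL4RA and through the transcription factor STAT6. In the gut they are made mainly by T cells and innate lymphoid cells, which tuft cells of the epithelium can activate through IL-25. Gasdermins are pore-forming proteins, RELMβ (Retnlb) and angiogenin 4 (Ang4) are secreted antimicrobial proteins of secretory cells, Mptx1 is a mucosal pentraxin and Pla2g4c is a cytosolic phospholipase A2.

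The 4 gasdermin C genes lie side by side on the minus strand of chromosome 15 (GRCm38), at chr15:63775968-63808759 for Gsdmc, chr15:63824346-63845177 for Gsdmc2, chr15:63857724-63878558 for Gsdmc3 and chr15:63891264-63912297 for Gsdmc4. Together they span 136.3 kb. Their coding sequences are near copies, and the first 90 coding bases, taken from the GENCODE transcripts, are shown because they bear on how reads could be assigned. Capitals mark bases unlike Gsdmc2.

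Gsdmc2: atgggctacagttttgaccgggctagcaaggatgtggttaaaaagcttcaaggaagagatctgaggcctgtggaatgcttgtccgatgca
Gsdmc3: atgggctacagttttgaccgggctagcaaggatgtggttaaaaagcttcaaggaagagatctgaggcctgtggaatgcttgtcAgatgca
Gsdmc4: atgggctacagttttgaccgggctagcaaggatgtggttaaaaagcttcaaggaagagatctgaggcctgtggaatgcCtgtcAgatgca
Gsdmc: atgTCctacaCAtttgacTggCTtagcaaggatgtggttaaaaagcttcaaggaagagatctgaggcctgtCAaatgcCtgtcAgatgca

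In this stretch Gsdmc3 differed from Gsdmc2 at 1 base, Gsdmc4 at 2 bases and Gsdmc at 11 bases. Over the whole coding sequence, Gsdmc2 and Gsdmc3 were identical at 97.1% of aligned bases, and Gsdmc4 was identical to these at 93.7% and 93.8%. Gsdmc stood further apart, with 86.7% to 87.5% identity to the other genes. Of all 50-base words in its transcripts, 51.3% of those of Gsdmc2, 46.0% of Gsdmc3, 39.0% of Gsdmc4 and 16.1% of Gsdmc also occur in other transcripts, all of them of the other gasdermin C genes. The authors counted only uniquely mapped reads, so reads made up of such words may have been lost. The 100-bp paired reads are longer than these words, so the shares of words are not shares of reads lost. The split among the paralogs is less certain than their sum.

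The other members lie apart from each other, with Mptx1 at chr1:174330518-174332873, Pla2g4c at chr7:13324655-13360672, Retnlb at chr16:48816856-48818892 (all on the plus strand) and Ang4 at chr14:51763878-51773590 (minus strand). Mptx1 shares 17.9% of its 50-base words with its paralog Mptx2, Ang4 shares 4.70% with Ang2 and Ang5, Pla2g4c shares 3.14% with other transcripts and Retnlb shares none. RefSeq promoters (GRCm38.p6, 250 bases before to 50 after a start site) were matched for Mptx1, Pla2g4c (2 start sites), Ang4 and Gsdmc3, 5 promoters in all. A TATA core (TATAA, either strand) occurred in 3 of these 5 and in 24.9% of all 32851 promoters in the table. In each of those 3 a match lay on the gene's strand from 30 to 23 bases before the start site, and the 60 bases before these start sites are shown with that match in capitals.

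Mptx1, chr1:174330458-174330517, plus strand: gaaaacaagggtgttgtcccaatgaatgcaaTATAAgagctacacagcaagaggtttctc
Pla2g4c, chr7:13329262-13329321, plus strand: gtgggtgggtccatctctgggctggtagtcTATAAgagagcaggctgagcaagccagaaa
Gsdmc3, chr15:63878559-63878618, minus strand: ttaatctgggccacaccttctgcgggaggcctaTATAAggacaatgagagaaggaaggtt

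The spaced half-sites that STAT6 prefers, TTCNNNNGAA, occurred in 0 of the 5 promoters and in 6.95% of all promoters. The shorter spacing bound by other STAT factors, TTCNNNGAA, occurred in 8.30% of all promoters and, among the 5, in that of Ang4, where it lies from 192 to 184 bases before the start site and is given in capitals.

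Ang4, chr14:51773751-51773810, minus strand: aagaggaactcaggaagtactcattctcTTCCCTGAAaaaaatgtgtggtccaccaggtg

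CATAAA, the core bound by CDX factors, occurred in 0 of the 5 promoters and in 11.9% of all. These windows are short, and no match says only that the letters are not in them.

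Counts per library ranged from 11571061 to 22984283. Values are CPM, counts scaled to a common library total with edgeR's TMM factors over the 8 libraries, given in the order of mouse 1 and mouse 2 of a group. Ddx5, the deleted gene, was 769.8 and 705 CPM in WTIEC colon against 367 and 354 in DDX5ΔIEC colon, and 699 and 699 CPM in WTIEC ileum against 339 and 326 in DDX5ΔIEC ileum. Ddx5 was thus lower in each of the 4 DDX5ΔIEC libraries, with transcript remaining over the exons counted. Of the DDX5ΔIEC ileum libraries, that of mouse 2 had 19.5% of its counts on 3 repeat-like genes, against 0.226% in mouse 1 and 3.93% to 4.04% in WTIEC ileum. Leaving these genes out altered no count of members given here. Fewer cells of a type and less RNA per cell cannot be told apart in such bulk samples.

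In wild-type colon several of the members were among the most abundant protein-coding transcripts. Per kb of exon, Mptx1 stood at 9597 CPM and ranked 2 among 20229 protein-coding genes with a read, Ang4 at 1981 CPM (rank 6), Retnlb at 1563 CPM (rank 11) and Gsdmc4 at 997 CPM (rank 18). Gsdmc2 followed at 462 CPM per kb (rank 48), Gsdmc3 at 132 (rank 219) and Pla2g4c at 74 (rank 453). No neighbours in this order overlapped between the 2 WTIEC mice. Gsdmc itself, the gene that gives the family its name, stood at 0.127 CPM per kb with 10 and 2 reads in all.

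The order was different in wild-type ileum. Ang4 was highest there at 3228 CPM per kb (rank 8), followed by Pla2g4c at 2033 (rank 14), Gsdmc4 at 1098 (rank 24), Gsdmc2 at 495, Retnlb at 306, Mptx1 at 186 and Gsdmc3 at 170.1. Mptx1 and Gsdmc3 overlapped between mice, as did no other neighbours.

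**Figure D1:**
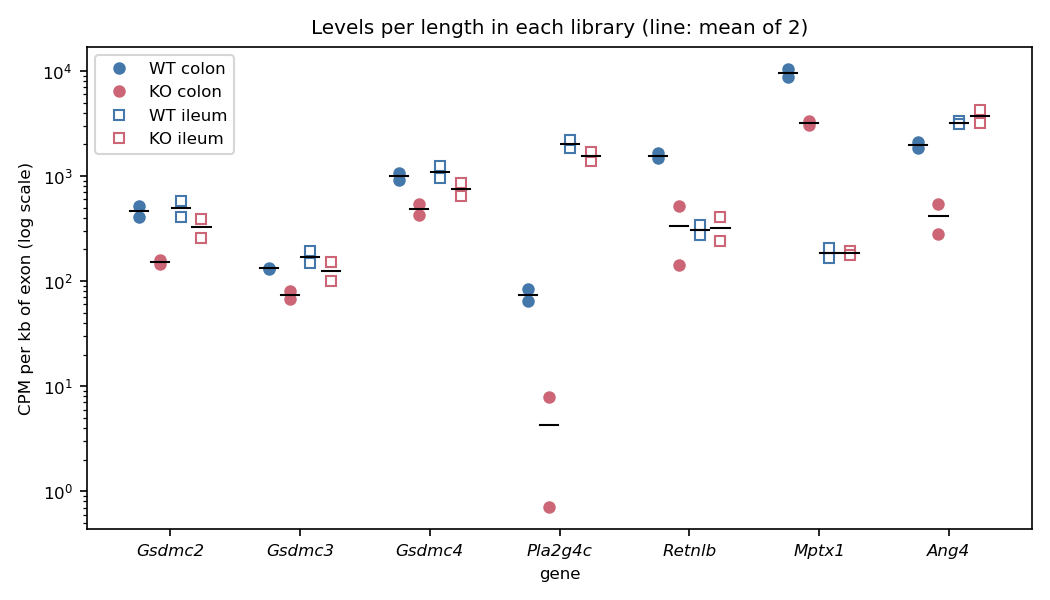
CPM per kb of exon on a log axis for 7 members, by library (points) and group mean (lines), with colon as filled circles and ileum as open squares (WT is WTIEC and KO is DDX5ΔIEC). Mptx1 and Retnlb sit highest in WTIEC colon, Pla2g4c and Ang4 sit higher in ileum, and the gasdermin C genes sit at like levels in both WTIEC tissues.

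Ileum and colon of the wild-type mice were then compared, a contrast that was treated here as not used to choose the members, although the basis of their choice is not known in full, and that shares its WTIEC libraries with the genotype comparison. The fit covered all 8 libraries with the mouse as a block. Among all 16178 genes tested, 19.5% were higher in the ileum and 18.3% higher in the colon at an adjusted p under 0.05, and of the 7 members tested 2 were higher in each. Pla2g4c, a phospholipase that releases fatty acids from membrane lipids, had 241 and 314 CPM in the colon and 6945 and 8288 CPM in the ileum. Its log2 difference was 4.79 ± 0.69 (SE), with an adjusted p of 0.00196 from edgeR's quasi-likelihood test. Mptx1, a pentraxin of the gut epithelium, went the other way, with 6987 and 8349 CPM in the colon and 132 and 165 CPM in the ileum. Its log2 difference of ileum over colon was -5.69 ± 0.21 (edgeR, adjusted p = 6.78e-06). Retnlb, which encodes the goblet cell protein RELMβ, was also higher in the colon, at 1026 and 1149.6 CPM against 236 and 191 CPM (log2 difference -2.36 ± 0.54, edgeR adjusted p = 0.014). Ang4, the antimicrobial ribonuclease, had 1310.3 and 1499 CPM in the colon against 2356 and 2221 CPM in the ileum (0.71 ± 0.19, edgeR adjusted p = 0.0263). In each of these 4 genes both mice of a tissue lay beyond both of the other.

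The gasdermin C genes did not pass this test. The log2 difference of ileum over colon was 0.08 ± 0.16 for Gsdmc2 (edgeR adjusted p = 0.723), 0.13 ± 0.21 for Gsdmc4 (0.661) and 0.35 ± 0.20 for Gsdmc3 (0.21). Leaving out any 1 WTIEC library left 2 of the 7 members past the threshold, Pla2g4c and Mptx1, and lowered the count over all genes from 6106 to between 2452 and 2516. Leaving out any 1 DDX5ΔIEC library added Gsdmc3, for 5 members in all. Without the mouse as a replicate block Ang4 did not pass, which left 3.

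**Figure D2:**
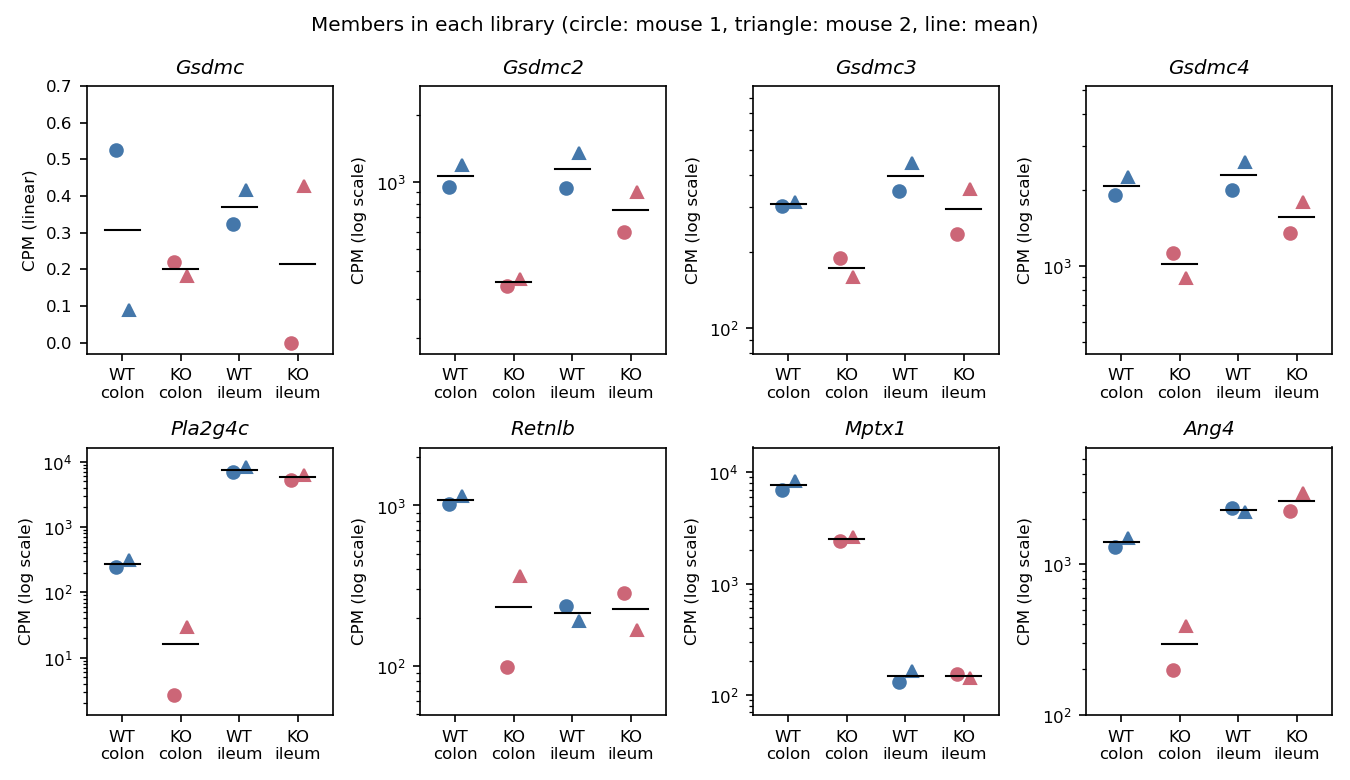
CPM of each member in each library, with mouse 1 as a circle, mouse 2 as a triangle and the mean as a line (log axes except for Gsdmc, WT is WTIEC and KO is DDX5ΔIEC). In the colon the DDX5ΔIEC points lie below the WTIEC points for every member but Gsdmc, while in the ileum the groups overlap for Gsdmc, Gsdmc3, Retnlb, Mptx1 and Ang4.

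In the colon, all 7 members that passed the filter on low counts were lower in both DDX5ΔIEC mice than in both WTIEC mice. The filter asked for about 10 reads in the libraries of a group, and Gsdmc did not pass it. Over all 15362 genes tested, 20.7% were lower in both DDX5ΔIEC mice than in both WTIEC mice. The study's criterion, a log2 fold change of at least 0.5 with an unadjusted p under 0.05, was met in the lower direction by 3.67% of genes and in the higher direction by 3.04%, and by 7 of the 7 members, all lower. Since the members were chosen with this contrast known, nothing is read from these counts. No gene of the 15362 reached an adjusted p under 0.05 in the colon with edgeR, while 1836 had an unadjusted p under 0.05. Ddx5 itself, the deleted gene, missed this threshold (log2 fold change -1.04 ± 0.09, edgeR adjusted p = 0.0867). A colonic adjusted p above it is thus no sign that a gene did not change. The paper chose its survival signature genes at an adjusted p under 0.05 in its own analysis. The 8 members took 1.40% and 1.68% of all counts in WTIEC colon and 0.472% and 0.548% in DDX5ΔIEC colon.

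Pla2g4c had the largest colonic difference of the members. It was read 4593 and 7139 times in the WTIEC mice and 48 and 651 times in the DDX5ΔIEC mice, which is 241 and 314 CPM against 2.65 and 29.6 CPM. The wild-type mean was 17.2 times the knockout mean. The fitted log2 fold change was -4.63 ± 0.74 (SE) with the replicate block and -4.09 without it. The DDX5ΔIEC mice were far apart from each other, and the value was -3.24 without mouse 1 of the knockout and -6.72 without mouse 2.

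The genes for secreted defence proteins came next. Retnlb had 1026 and 1149.6 CPM in WTIEC against 98.6 and 363 CPM in DDX5ΔIEC (log2 fold change -2.53 ± 0.43, or -2.25 without the replicate block). The spread was again mostly among the knockout mice, with -1.59 when mouse 1 of the knockout was left out and -3.48 without mouse 2. Ang4 had 1310.3 and 1499 CPM in WTIEC against 199 and 387 CPM in DDX5ΔIEC (-2.35 ± 0.20), and mouse 1 was the lower knockout mouse here too. Mptx1 was lower by a like amount in both numbered pairs, at 6987 and 8349 CPM against 2432 and 2646 CPM (-1.60 ± 0.11).

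Among the gasdermin C genes, Gsdmc2 was lower by about as much as Mptx1, and Gsdmc4 and Gsdmc3 by less. Gsdmc2 had 949 and 1192 CPM in WTIEC colon and 341 and 368 CPM in DDX5ΔIEC colon (log2 fold change -1.59 ± 0.11). Gsdmc4, the most abundant of the family, had 1909 and 2254 CPM against 1128 and 896 CPM (-1.06 ± 0.17). Gsdmc3 had 303 and 312 CPM against 188 and 159 CPM (-0.84 ± 0.10). For these genes the knockout mice lay close together, and mouse 1 was the lower only for Gsdmc2. Gsdmc had 10 and 2 reads in WTIEC and 4 and 4 in DDX5ΔIEC, too few for a comparison.

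Because the paralogs share sequence, the family was also taken as a sum. It came to 3161 and 3758 CPM in WTIEC colon and 1658 and 1423 CPM in DDX5ΔIEC colon, and the fitted log2 fold change of the sum was -1.18 ± 0.15. Gsdmc4 made up 60.4% and 60.0% of the family's reads in WTIEC colon and 68.1% and 62.9% in DDX5ΔIEC colon. The share of Gsdmc2 was 30.0% and 31.7% in WTIEC and 20.6% and 25.9% in DDX5ΔIEC, so Gsdmc2 and its near copy Gsdmc3 were not lowered in proportion. Per length, Gsdmc2 stood at 3.14 and 3.85 times Gsdmc3 in WTIEC colon and at 1.83 and 2.33 times in DDX5ΔIEC colon.

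**Figure D3:**
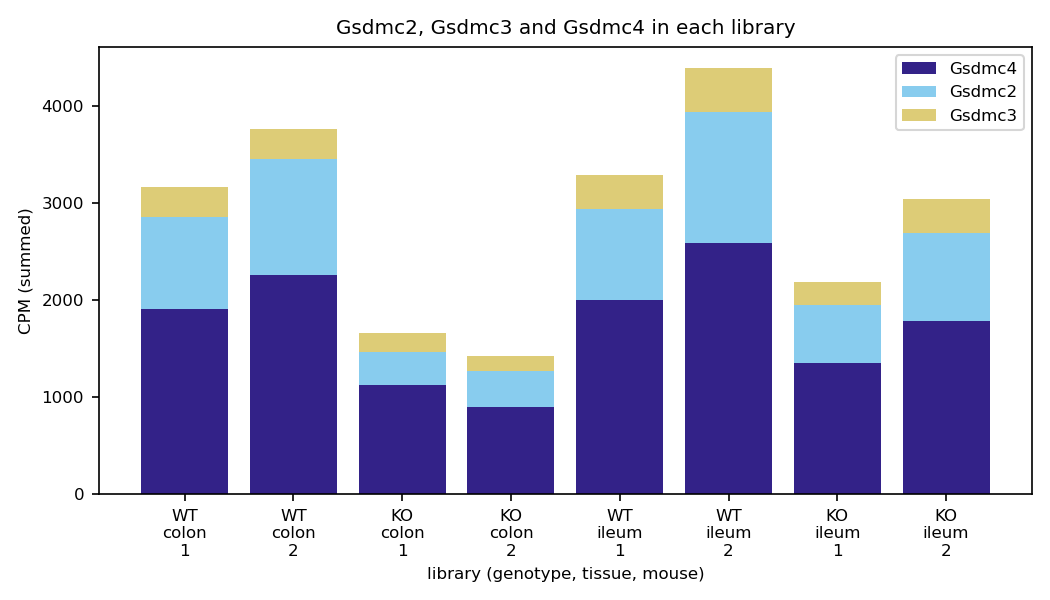
Summed CPM of Gsdmc4, Gsdmc2 and Gsdmc3 in each of the 8 libraries (stacked bars from 0, WT is WTIEC and KO is DDX5ΔIEC). The DDX5ΔIEC colon bars reach 1658 and 1423 CPM against 3161 and 3758 CPM in WTIEC colon, and the part of Gsdmc2 is smallest in DDX5ΔIEC colon.

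The order of the members in DDX5ΔIEC colon was led by Mptx1 at 3178 CPM per kb (rank 3). Gsdmc4 at 485, Ang4 at 413, Retnlb at 332 and Gsdmc2 at 153 followed, each overlapping its neighbour between mice, and then Gsdmc3 at 74.5 and Pla2g4c at 4.31. Pla2g4c moved from rank 453 in WTIEC colon to rank 6925 of 20229 protein-coding genes.

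In the ileum the picture was split. Of the 7 members tested, Gsdmc2, Gsdmc4 and Pla2g4c were lower in both DDX5ΔIEC mice than in both WTIEC mice, against 20.8% of all 14068 genes tested. The study's criterion was met by Gsdmc2 and Gsdmc4, both lower. Over all genes tested in the ileum it was met by 3.48% in the lower and 3.87% in the higher direction. These counts come from a contrast known when the members were chosen, and nothing is read from them.

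Gsdmc2 had 943 and 1349 CPM in WTIEC ileum and 598 and 906 CPM in DDX5ΔIEC ileum (log2 fold change -0.61 ± 0.20). Gsdmc4 had 1995 and 2588 CPM against 1348 and 1787 CPM (-0.55 ± 0.23). Gsdmc3 had 345 and 447 CPM against 235 and 351 CPM (-0.45 ± 0.16), and its groups overlapped. In all 3 genes mouse 2 was above mouse 1 in both genotypes, so the difference within a pair was steadier than the levels, at -0.66 and -0.57 for Gsdmc2 in pairs 1 and 2. Without the replicate block 0 of the members met the criterion in the ileum. Leaving out WTIEC mouse 1, WTIEC mouse 2 or DDX5ΔIEC mouse 1 left 0 as well, and leaving out DDX5ΔIEC mouse 2, the library with many repeat-like reads, left 4. The family sum was 3283 and 4384 CPM in WTIEC and 2181 and 3044 CPM in DDX5ΔIEC, with a fitted log2 fold change of -0.56 ± 0.25 that did not meet the criterion. Gsdmc was read 7 and 6 times in WTIEC ileum and 0 and 4 times in DDX5ΔIEC ileum, and the count of 0 allows up to 3 reads, or 0.281 CPM, for counting error only.

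Pla2g4c remained abundant in DDX5ΔIEC ileum, with 6945 and 8288 CPM in WTIEC against 5196 and 6347 CPM (log2 fold change -0.40 ± 0.28). Retnlb had 236 and 191 CPM against 283 and 167 CPM (0.04 ± 0.16), Mptx1 had 132 and 165 CPM against 154 and 143 CPM (0.01 ± 0.15), and Ang4 had 2356 and 2221 CPM against 2268 and 2982 CPM (0.19 ± 0.25). The groups overlapped for the last 3 genes, which code for secreted proteins. The order in DDX5ΔIEC ileum was that of WTIEC ileum, from Ang4 at 3702 CPM per kb and Pla2g4c at 1540.3 down to Mptx1 at 185 and Gsdmc3 at 126, with Gsdmc2 at 325 and Retnlb at 323 overlapping between mice.

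**Figure D4:**
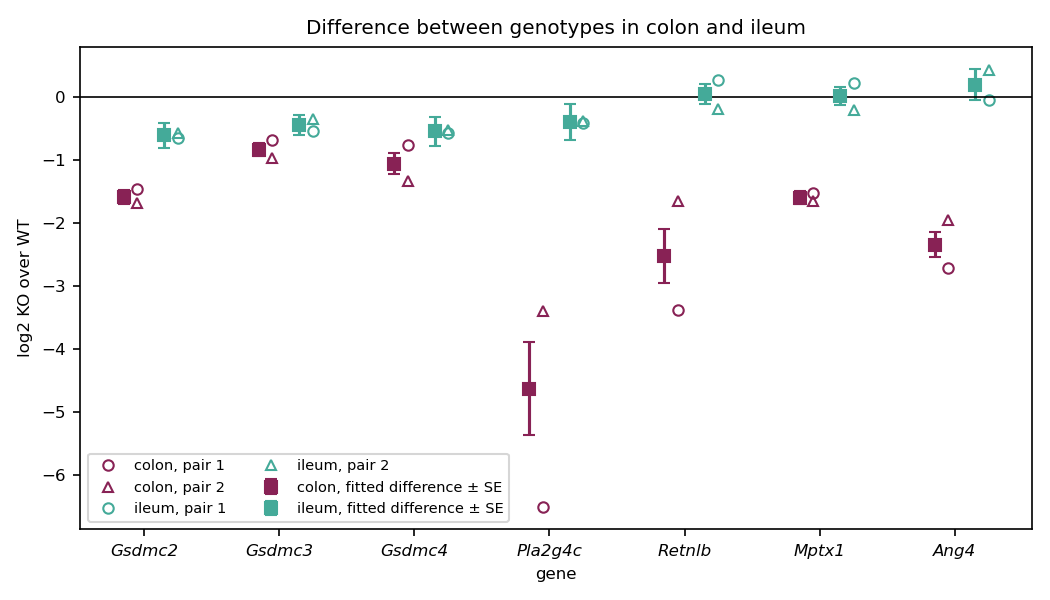
Fitted log2 fold change of DDX5ΔIEC (KO) over WTIEC (WT) with its standard error (squares) and the log2 ratio of each numbered pair of mice (open symbols) for 7 members in colon and ileum. Colonic differences run from -0.84 for Gsdmc3 to -4.63 for Pla2g4c and ileal ones from -0.61 for Gsdmc2 to 0.19 for Ang4.

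The fitted differences of colon and ileum are set side by side as a description, since both contrasts were known when the members were chosen. The log2 fold change in the ileum less that in the colon, from the fit over 8 libraries, was 4.39 ± 0.92 for Pla2g4c, 2.55 ± 0.78 for Retnlb, 2.52 ± 0.27 for Ang4 and 1.59 ± 0.24 for Mptx1. It was 0.97 ± 0.23 for Gsdmc2, 0.50 ± 0.29 for Gsdmc4 and 0.38 ± 0.28 for Gsdmc3, and without mouse 2 of the knockout colon the last 2 were 0.14 and -0.01. With a library left out this difference ranged from 2.95 to 6.18 for Pla2g4c and from 1.22 to 3.90 for Retnlb. Put as levels, ileum over colon in DDX5ΔIEC was 9.18 ± 0.86 on the log2 scale for Pla2g4c and 3.23 ± 0.21 for Ang4, against 4.79 and 0.71 in WTIEC. For Retnlb the log2 difference of the tissues was 0.19 ± 0.57 in DDX5ΔIEC and -2.36 in WTIEC. The knockout value rested on single mice, at -1.14 without mouse 1 of the knockout colon and 1.53 without mouse 2.

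The upstream pathway was examined through 23 genes for type 2 ligands, receptors and signalling, of which 21 were listed. This list and those below were also chosen with earlier results of these data known. Their counts past the criterion and their p-values are therefore a description, not independent evidence. The ligand genes Il4, Il13 and Il5 had 0 counts in all 4 colon libraries and at most 0.277 CPM in the ileum, and Il25, the tuft cell cytokine, stood between 0 and 0.228 CPM in the colon and between 0.281 and 1.39 CPM in the ileum. In the colon 14 were tested, 2 met the criterion as lower (Il4ra, Socs1) and 1 as higher (Socs3), against 3.67% and 3.04% of all genes. The median log2 fold change was -0.03 against 0 over all genes. Il4ra, the receptor chain shared by IL-4 and IL-13, had 38.8 and 40.1 CPM in WTIEC colon against 23.6 and 31.1 CPM in DDX5ΔIEC colon (-0.55 ± 0.12, edgeR adjusted p = 0.286). In the ileum it had 112 and 96.9 CPM against 108 and 82 CPM (-0.14 ± 0.14, edgeR adjusted p = 0.75). Il13ra1, its partner chain for IL-13, had log2 fold changes of 0.01 ± 0.08 in the colon and -0.15 ± 0.16 in the ileum. Stat6, the transcription factor, had -0.05 ± 0.10 and 0.01 ± 0.14.

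Socs1, a feedback inhibitor of cytokine signalling, was lower in both tissues. It had 6.45 and 4.61 CPM against 1.38 and 2.91 CPM in the colon (-1.39 ± 0.41, edgeR adjusted p = 0.34), and 18 and 19.5 CPM against 9.92 and 6.95 CPM in the ileum (-1.15 ± 0.20, edgeR adjusted p = 0.0288). Socs3, a feedback inhibitor chiefly of STAT3 signalling, was higher in DDX5ΔIEC colon, at 5.72 and 4 CPM against 8.27 and 18.8 CPM (1.39 ± 0.43, edgeR adjusted p = 0.342). In the ileum 15 genes of the list were tested, of which Socs1 and Cish, another feedback inhibitor, met the criterion as lower and Il1rl1, the IL-33 receptor, as higher. Over all genes these shares were 3.48% and 3.87%. Cish changed by -0.75 ± 0.16 (edgeR adjusted p = 0.0711) and Il1rl1 by 0.80 ± 0.19 (0.105).

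Of other epithelial genes known to be induced by type 2 cytokines, 19 were chosen and 18 listed. In the colon 13 were tested and 5 met the criterion, all lower (Clca1, Itln1, Fcgbp, Sprr2a1 and Sprr2a3), against 3.67% of all genes. The median log2 fold change was -0.49 against 0 over all genes. Clca1, a secreted goblet cell protease, had 14979.9 and 15523 CPM in WTIEC colon against 4112 and 6499 CPM in DDX5ΔIEC colon (-1.57 ± 0.18, edgeR adjusted p = 0.166). Itln1, a lectin that binds microbial sugars, had 75.2 and 72.1 CPM against 14.6 and 36.9 CPM (-1.65 ± 0.34, edgeR adjusted p = 0.268). Fcgbp, a mucus protein, changed by -0.61 ± 0.12, and the mucin Muc2 had a log2 fold change of 0.09 ± 0.21. In the ileum 13 were tested, 2 met the criterion as lower (Sprr2a1 and Sprr2a2, close paralogs for small proline-rich proteins whose reads could be split uncertainly) and 1 as higher (Tff3, a trefoil peptide), with a median of 0.15. Over all genes these shares were 3.48% and 3.87%. Clca1 had 8939.5 and 8319 CPM against 10396 and 8201 CPM there (0.10 ± 0.30, edgeR adjusted p = 0.937).

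Relatives of the members were looked at to see how far a change in 1 gene extended to its family. Of 20 genes for other gasdermins and the pyroptosis machinery, 14 were tested in the colon and 0 met the criterion. In the ileum Gsdme and the cytokine gene Il18, 2 of 13, met it as higher, against 3.87% of all genes. Gsdmd, the gasdermin that inflammatory caspases cut, had 118 and 112 CPM against 133 and 102 CPM in the colon (0.01 ± 0.11) and 186 and 161 against 251 and 134 CPM in the ileum (0.09 ± 0.17). Gsdme changed by 0.53 ± 0.17 in the ileum (edgeR adjusted p = 0.214), with overlapping groups, and had a log2 fold change of 0.30 ± 0.30 in the colon. Among 16 other genes of the resistin, pentraxin, angiogenin and phospholipase families, 7 were tested in the colon and Mptx2 and Ang5 met the criterion. Both were lower, against 3.67% of all genes, while 0 of 5 met it in the ileum at the fold required. Mptx2, the Paneth cell paralog of Mptx1, had 5.35 and 7.21 CPM against 1.65 and 1.55 CPM in the colon (-1.97 ± 0.26, edgeR adjusted p = 0.176). In the ileum it had 403 and 359 CPM against 494 and 523 CPM (0.42 ± 0.17, edgeR adjusted p = 0.353). Ang5 was near the detection limit in the colon, at 0.682 and 0.923 CPM against 0.0551 and 0.137 CPM, and may share reads with Ang4.

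Markers of the cells that make or induce these genes were summed in each library. These lists too were chosen with earlier results known, so their counts past the criterion are a description only. The 15 goblet cell markers came to 47968 and 53305 CPM in WTIEC colon and 29151 and 42958 CPM in DDX5ΔIEC colon. The wild-type mean was 1.40 times the knockout mean, while the median log2 fold change of the 15 genes was -0.15. Clca1 and Fcgbp were the 2 of 15 past the criterion, against 3.67% of all genes in the lower direction, and both are also among the type 2 induced genes above. The sum of the other 13 was 16056 and 19228 CPM in WTIEC colon and 13942 and 24208 CPM in DDX5ΔIEC colon, with overlapping groups. In the ileum the sum was 0.83 times as high in WTIEC, at 28969.6 and 24973 against 34661 and 30414 CPM. The 19 tuft cell markers came to 128 and 134 CPM against 52.8 and 95.8 CPM in the colon, where 10 of 16 tested met the criterion as lower, against 3.67% of all genes, and 1 (Tas1r3) as higher. Their sum in the ileum was 615 and 914 CPM against 419 and 493 CPM, where 13 of 18 met it as lower, against 3.48% of all genes. Of these, 5 had an edgeR adjusted p under the threshold of 0.05, as did 45 of all 14068 genes in the lower direction (0.32%). Dclk1, the tuft cell kinase, had 30.5 and 32.9 CPM against 8.32 and 21.8 CPM in the colon (-1.20 ± 0.31, edgeR adjusted p = 0.319) and 127 and 196 against 76.3 and 103 CPM in the ileum (-0.83 ± 0.14, edgeR adjusted p = 0.0274). The tuft sum lay below both WTIEC mice in both DDX5ΔIEC mice of each tissue, as did Gsdmc2, Gsdmc4 and Pla2g4c, and the part of tuft cells in those differences was not tested.

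Marker sums for immune cells, Paneth cells and colonocytes also differed between the genotypes in the colon. The 16 T cell and innate lymphoid genes, 15 of them listed, summed to 142 and 99.2 CPM in WTIEC colon and 70.6 and 50.2 CPM in DDX5ΔIEC colon. Of 10 tested, 6 met the criterion, all lower, against 3.67% of all genes. Ptprc, the common leukocyte marker, had 22.2 and 19.9 CPM against 5.4 and 10.9 CPM. The B cell, myeloid and MHC class II list, with genes that epithelium can also express, summed to 149.7 and 164 CPM against 20.4 and 38.7 CPM. Of 7 tested, 4 met the criterion as lower (Cd74, H2-Aa, H2-Ab1 and H2-Eb1, against 3.67% of all genes) and 1 (Igha) as higher (3.04%). The 4 lower genes are all of MHC class II presentation, and no B cell or myeloid gene of the list met the criterion as lower. Paneth markers summed to 241 and 194 CPM against 119.9 and 163 CPM in the colon. Of 7 tested, 2 met the criterion as lower, against 3.67% of all genes. These were Itln1 and Mptx2, both already counted on lists above. The Paneth genes Lyz1 and Defa24 were near the floor in the colon, at no more than 2.09 and 1.21 CPM, so this sum says little of Paneth cells there. Colonocyte markers went the other way, from 8551 and 9014 CPM to 9052 and 10712 CPM. Of these, 4 of 11 met the criterion, all higher, against 3.04% of all genes. The goblet, tuft, Paneth and MHC class II sums were lowest in mouse 1 of the knockout, the mouse with the lowest Pla2g4c, Retnlb, Ang4, Mptx1 and Gsdmc2. The T cell and innate lymphoid sum was instead lowest in mouse 2, as were Gsdmc4 (1128 and 896 CPM) and Gsdmc3 (188 and 159 CPM). With 2 knockout mice, which of them is the lower says little. The part of all these cells in the differences was not tested. In the ileum T cell and innate lymphoid genes summed to 190.3 and 201 CPM against 254 and 182 CPM, B cell, myeloid and MHC class II genes to 2046 and 877 against 1608 and 449 CPM, and Paneth markers to 15026 and 9630.3 against 13769 and 15258 CPM, and the groups overlapped in each. Il1rl1, also on the signalling list above, held 51.7 and 74 CPM of the ileal T cell sums in WTIEC and 121 and 94.7 CPM in DDX5ΔIEC. The sum of the B cell, myeloid and MHC class II list was lower in the knockout of both numbered pairs. In the ileum 4 of its 9 genes tested met the criterion as lower (3.48% of all genes) and 1 (Lyz2) as higher (3.87%). H2-Aa, an MHC class II chain, was the 1 of these with an adjusted p under the threshold (-0.92 ± 0.18, edgeR adjusted p = 0.0487).

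**Figure D5:**
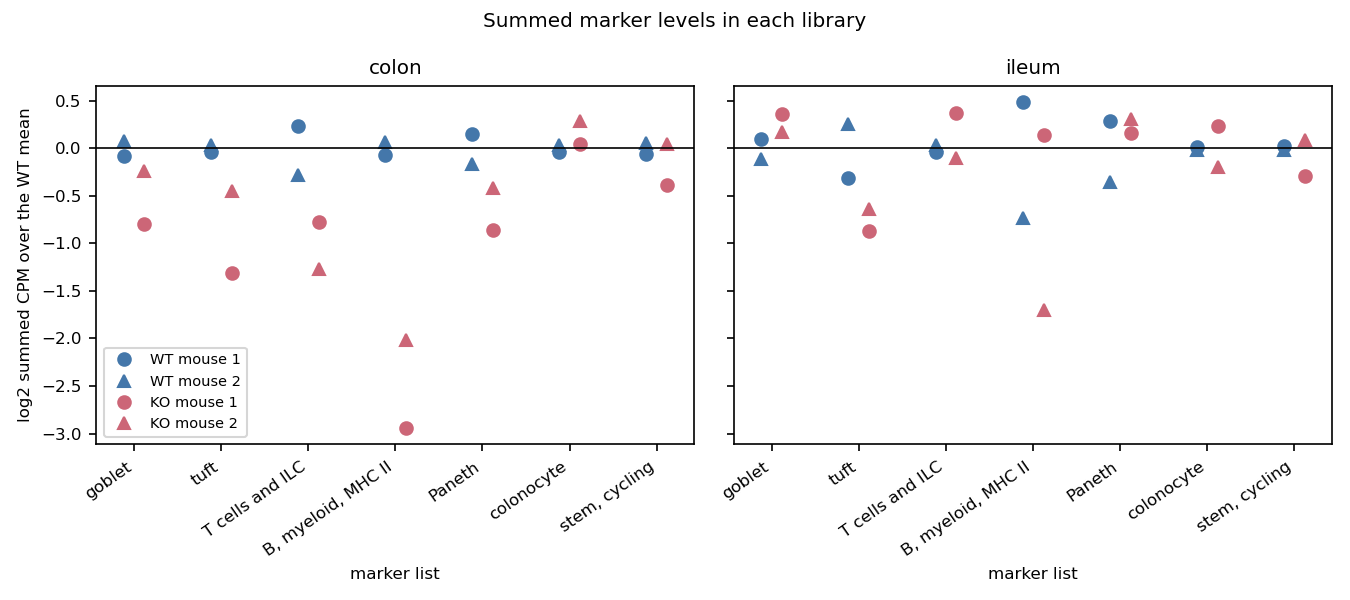
Log2 of the summed CPM of each marker list in each library over the WTIEC mean of its tissue, with WT as WTIEC, KO as DDX5ΔIEC, circles for mouse 1 and triangles for mouse 2. In the colon the goblet, tuft, Paneth, T cell and MHC class II sums of both DDX5ΔIEC mice lie below those of both WTIEC mice. Clca1 and Fcgbp carry the difference in the goblet sum, and the colonic Paneth sum holds Itln1 while Lyz1 and Defa24 are near the floor. In the ileum the tuft sum of both DDX5ΔIEC mice lies below that of both WTIEC mice.

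The genes with the pattern most like the summed gasdermin C genes were sought among 10843 protein-coding genes with a mean of at least 50 reads. Log2 CPM was centred within each tissue over the 8 libraries, which come from 4 mice. After the family's own genes, the highest Pearson correlations were those of Cdc25b (r = 0.985), Cdca4 (0.983), Nabp1 (0.980), Fem1b (0.975) and Dcbld1 (0.972), given as a description. Their range was narrow, for example 19.8 and 21.3 CPM of Cdc25b in WTIEC colon against 15.5 and 15.5 CPM in DDX5ΔIEC colon. Of the other members, Mptx1 had r = 0.850 (rank 167 of the 10843 genes), Ang4 0.766 (rank 447), Pla2g4c 0.758 (rank 478) and Retnlb 0.615 (rank 1257). Many other genes were thus more like the gasdermin C sum. The members were chosen with the genotype contrasts known, so nothing is read from these values.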

How the data were processed

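RNAseq was performed by the authors on IECs of 8 libraries. Per the methods, ribosome-depleted RNA was sequenced as 100-bp paired ends, aligned to mm10 with STAR 2.6.1a, and the authors deposited 1 table for each tissue with whole-number counts per GENCODE vM19 gene, made with featureCounts from reads that mapped uniquely to exons (strand setting not given in the sources used here). The deposited tables also hold the authors' normalized signal (counts over a size factor) and the DESeq2 1.18.1 comparison made by the authors, with its log2 fold change, standard error, Wald score and p-value columns, and none of these was used. No column of another sample was present. Groups were taken from the sample labels.

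The members and gene lists were chosen with earlier results of these data known. Counts were analysed with R 4.3.3, edgeR 4.0.16 and, as an alternative, DESeq2 1.42.0. Genes passing filterByExpr (minimum count 10) were scaled with TMM. The test was edgeR's quasi-likelihood test, within each tissue with a block for the replicate number (the methods name a harvest covariate and pairs of cohoused littermates) and over all 8 libraries with the mouse as a block for the tissues. The Benjamini-Hochberg adjustment ran over all genes tested, and the standard error is the fold change over the root of its F statistic. Same-numbered colon and ileum libraries come from 1 mouse by the mouse numbers in the column names of the study's supplementary tables (the labels give replicate numbers alone), and their deviations from the group means correlated at 0.168 in WTIEC and 0.185 in DDX5ΔIEC over genes. A gene that 1 tissue's table does not list was taken as 0 there. With 2 mice a group, the smallest two-sided p of an exact permutation test is 0.333, so each p rests on the spread shared across genes. Library totals of 11571061 to 22984283 counts limit genes with few reads, and floors cover counting error only.

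Alternatives were no replicate block, RLE normalization, no filter, DESeq2 with the block, no repeat-like genes (Gm10800, Gm10801, Gm21738), each library left out, and the Gsdmc genes summed. The genes named are all 8 members, Ddx5, 9 genes fixed by name (Il4ra, Il13ra1, Stat6, Il25, Dclk1, Clca1, Gsdmd, Gsdme, Mptx2), genes of the lists past the study's criterion (of which the text gives some) and the 5 most like the Gsdmc sum. Il4, Il13, Il5, Muc2 and Tas1r3 were named after their values were seen. Positions and transcripts come from GENCODE vM21 (GRCm38), with identifier versions equal to those in the files, and promoters from RefSeq (GRCm38.p6). The fits were tested on simulated data.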

Additional observations from a re-analysis of the deposited data

Results flagged for a closer look

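Mptx2 had DDX5ΔIEC libraries below both WTIEC libraries in the colon (5.35 and 7.21 against 1.65 and 1.55 CPM) and above both in the ileum (403 and 359 against 494 and 523 CPM). The log2 fold change in the ileum less that in the colon was 2.39, and it did not reach an adjusted p under 0.05 in the edgeR fit over 8 libraries. Its colonic level is low, and 17.9% of the 50-base words of Mptx1 occur in Mptx2.

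Pecam1, an endothelial gene of the stroma list at up to 3.03 CPM, lay above both WTIEC libraries in DDX5ΔIEC colon and below both in the ileum, with a difference of -1.31, which did not reach an adjusted p under 0.05 either. Groups of 2 libraries were too small to look for a sample far from the others.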

How the results depend on the processing

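All 7 tested members were lower in DDX5ΔIEC colon under every alternative that kept the gasdermin C genes apart. They met the criterion in each of those that kept all libraries. The members were chosen with this contrast known and the alternatives share its libraries, so nothing is read from this. Of 67 member values for colonic alternatives 67 kept their sign, and in the ileum 59 of 67 did. Over all genes, 1031 colonic genes met the criterion, 508 with DESeq2 and the replicate block and from 608 to 2388 with a library left out. In the ileum the 1034 became 414 with DESeq2 and from 479 to 1574 with a library left out, and the members meeting it went from 2 to 0 with no replicate block and ranged from 0 to 4 with a library left out. For the wild-type tissues, the 6106 genes ranged from 2452 to 7731 and the 4 members from 2 to 5 with a library left out, and no other alternative moved these counts by over 1.5 times. The knockout tissue count of 6111 stayed within 1.5 times throughout. The interaction count of 1 was 2 with no replicate block, 318 with no filter, 36 with DESeq2 and the replicate block by mouse, and from 0 to 327 with a library left out. The cause of these shifts was not tested. Same-numbered WTIEC and DDX5ΔIEC libraries deviated together with r = 0.019 in the colon and 0.258 in the ileum, so in the colon the numbers were not seen to pair the mice. With a library left out its group holds 1 mouse, assumed to vary like the others. Depth limits Gsdmc, the type 2 ligand genes and Ang5.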

Other observations

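The following genes of the chosen lists met the criterion in the ileum. Zg16, a goblet cell lectin, had 598 and 558 CPM in WTIEC ileum and 1226 and 793 CPM in DDX5ΔIEC ileum (log2 fold change 0.77 ± 0.21, edgeR adjusted p = 0.149). Pla2g2a, a secreted Paneth cell phospholipase, had 27.4 and 13.2 CPM against 38.8 and 41.3 CPM (1.05 ± 0.23, edgeR adjusted p = 0.0764). Aqp4, a water channel of the gut epithelium, had 24.7 and 22.4 CPM against 13.1 and 12.8 CPM (-0.86 ± 0.16, edgeR adjusted p = 0.0426). Gnat3, a taste-type G protein of tuft cells, had 9.45 and 15.9 CPM against 4.4 and 4.17 CPM (-1.51 ± 0.24, edgeR adjusted p = 0.0265).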
